A study of Drosophila melanogaster with 72 samples.

Results

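The 6 transcripts of the fly visual pigment chromophore pathway, ninaD, santa-maria, ninaB, ninaG, pinta and ninaA, were followed in Drosophila melanogaster heads expressing mutant huntingtin (mHTT), the protein that carries an expanded polyglutamine tract in Huntington's disease. The genes were taken by name, as 6 of the 13557 genes in the deposited table, and each matched 1 row. ninaD was included because it was higher with mHTT in all 4 disease models, so its mHTT differences are given as description and without a test. The other 5 genes were added by name, as genes of the same pathway. The name of the set fits ninaA loosely, since this gene encodes a chaperone of the opsin protein and not a chromophore enzyme or carrier.

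Poly(A) RNA of whole heads was sequenced in 72 libraries, 3 per combination of model, genotype and age. In the glial models repo-GAL4/+ flies carried UAS-HTTNT231Q128/+ (an N-terminal fragment; 5, 7 and 8 days) or UAS-HTTFLQ200/+ (full-length; 18, 20 and 22 days). In the neuronal models elav-GAL4/+ flies carried UAS-HTTNT231Q128/+ (7, 9 and 11 days) or UAS-HTTFLQ200/+ (18, 20 and 22 days). Controls of each model were flies of the same age with the driver and no UAS insert, repo-GAL4/+ or elav-GAL4/+. All flies were kept at 28 °C except the neuronal full-length flies and their controls, which were kept at 29 °C. Every library pooled 50 heads, so each value averages over brain, retina, fat body and any other tissue in a head. repo-GAL4 acts in glia and elav-GAL4 in neurons, photoreceptors included. In such bulk samples fewer cells of a type and less RNA per cell cannot be told apart.

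Flies make their visual chromophore, 3-hydroxyretinal, from dietary carotenoids. NinaD and Santa-maria are class B scavenger receptors that take carotenoids into cells, NinaD mainly in the gut and Santa-maria in cells outside the retina. NinaB cleaves and isomerises the carotenoid to retinal, and NinaG, an oxidoreductase, acts in a later step that gives the (3S)-3-hydroxy form. PINTA binds retinoids in the retinal pigment cells, and NinaA is a cyclophilin that escorts the main rhodopsin, Rh1, through the secretory pathway of photoreceptors.

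Levels are the deposited normalised RSEM values, in which the 75th percentile of each library is 1000, and changes are mHTT minus control on the log2(value + 1) scale. Each model was fitted with limma to its 18 libraries, and a gene is said to have risen or fallen where the Benjamini-Hochberg p adjusted over all genes of the fit was under 0.05. These p-values measure the spread between libraries, and nothing in the labels says whether replicates came from separate cultures. In 71 libraries the values summed to 16.61 to 23.75 M (M, 1e6) and 1073 to 1782 genes were at 0. The second neuronal control library at day 11 stood apart, with a sum of 39.28 M and 3223 genes at 0, and it alone carried its library label prefix. The libraries farthest from their group means were this one, glial N-terminal mHTT day 7 replicate 1, glial control day 22 replicate 1 and neuronal full-length mHTT day 22 replicate 1. Results that rest on these 4 libraries are given with and without them.

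All 6 genes were detected in every library. Per kilobase of annotated exon, the median level over the 36 control libraries was highest for ninaA (3437), followed by ninaB (1012), pinta (903), ninaG (586), santa-maria (446) and ninaD (66.0). ninaD varied most between libraries. Its values ran from 33.2 to 860.1 over the 72 libraries, a 25.9-fold range, against a 2.16-fold range for santa-maria, 2.62-fold for ninaB, 3.04-fold for pinta and 4.602-fold for ninaG. The 8.78-fold range of ninaA rested on the neuronal control library that stood apart.

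**Figure D1:**
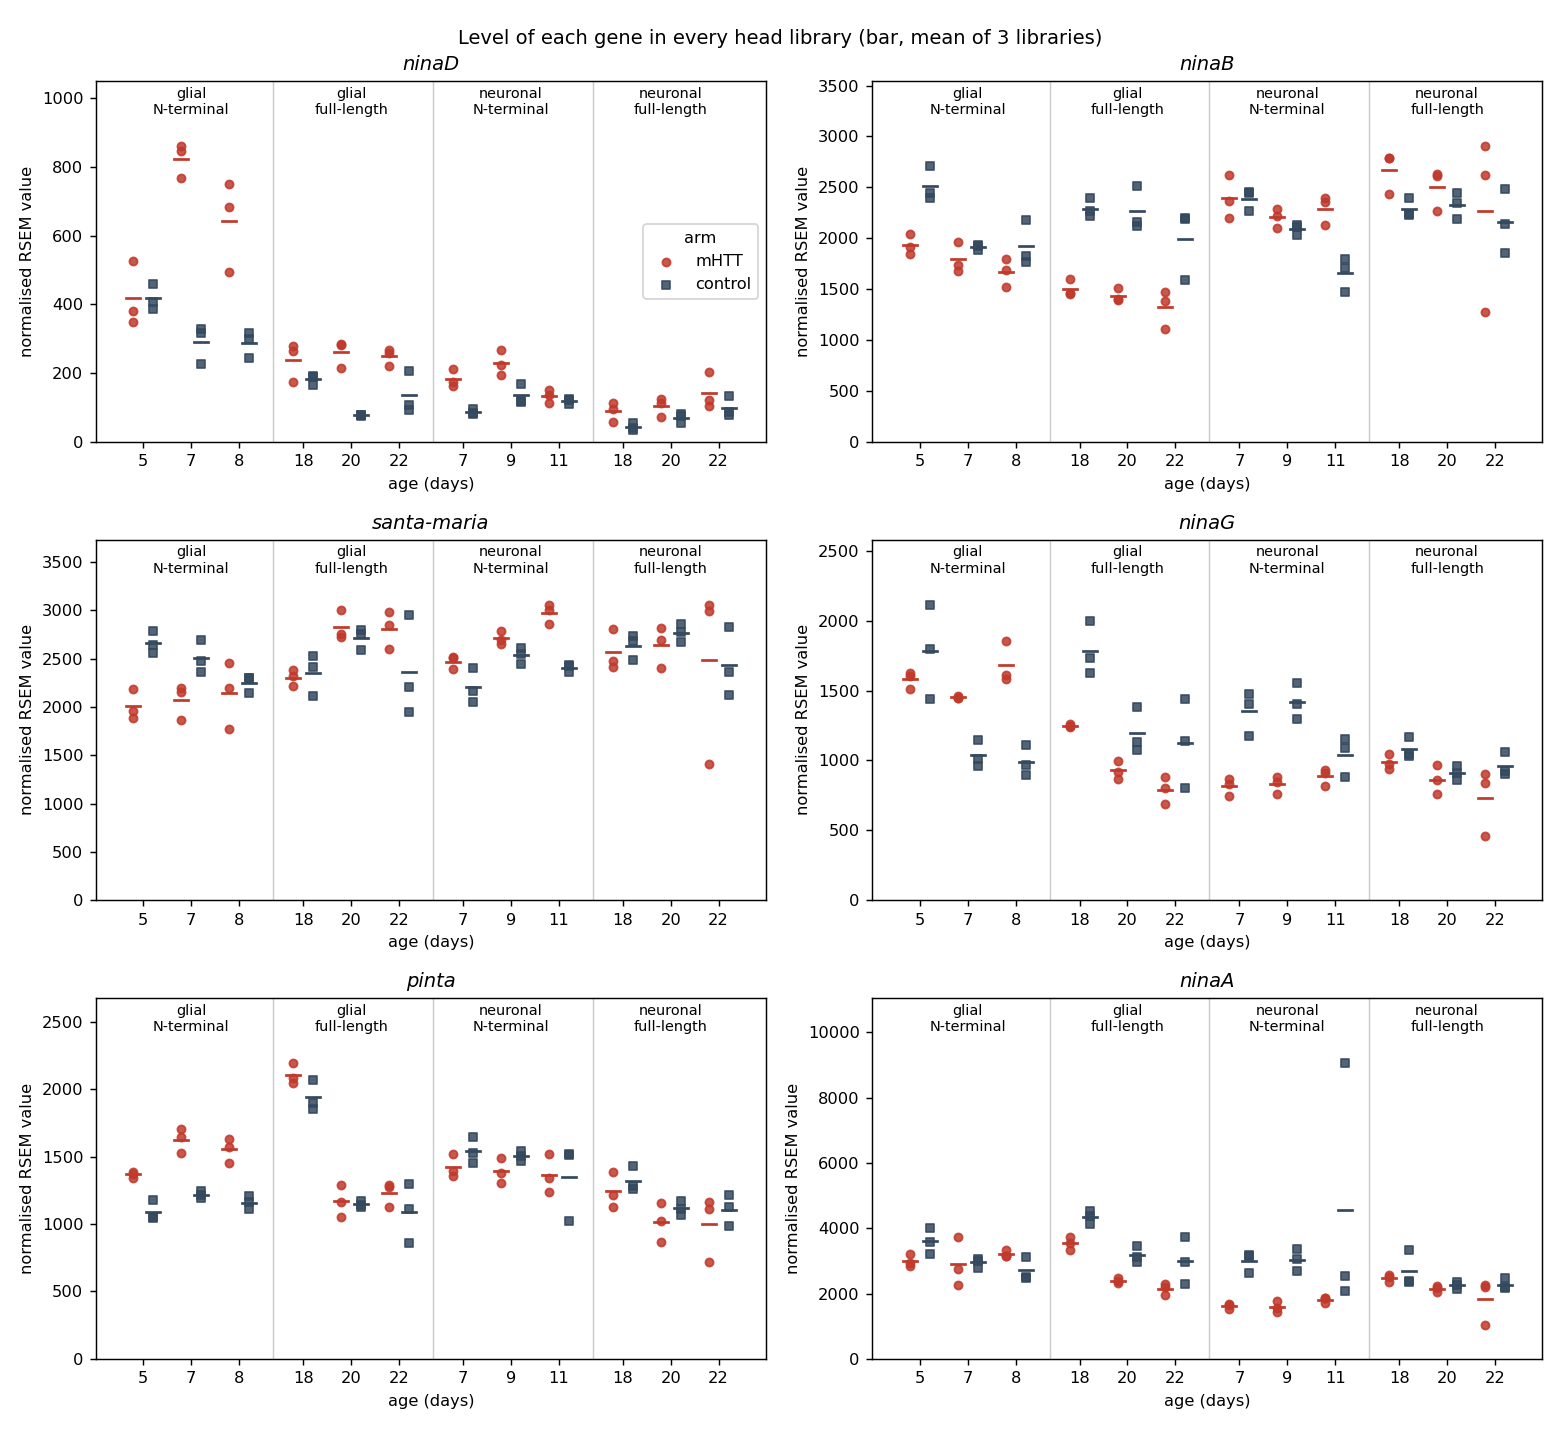
Deposited normalised RSEM value (y axis, linear) of each of the 6 genes in all 72 head libraries, by model and age in days (x axis), with mHTT in red left of control in blue and a bar at the mean of 3 libraries. ninaD lay above control by the widest gap in value with glial N-terminal mHTT at day 7 (766 to 860.1 against 227 to 328). Its log2 change was larger with glial full-length mHTT at day 20 (1.74 against 1.52). A single ninaA control value of 9061 stands far above the rest.

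ninaD, the carotenoid uptake receptor, was at its highest level in the glial N-terminal model. At day 5 it had values of 380.4, 527 and 349 in mHTT heads, against 459, 387 and 408 in control heads. At day 7 the values were 845, 860.1 and 766 in mHTT heads, against 328, 227 and 316 in control heads. At day 8 they were 495, 683 and 750.1 in mHTT heads, against 299.6, 317 and 243 in control heads. The groups overlapped at day 5 and were fully apart at days 7 and 8. The change was -0.02 at day 5, 1.52 at day 7 and 1.15 at day 8, and 0.88 over the 3 ages (SE 0.11). The sign at day 5 depended on which library was left out, as the change was 0.04 without mHTT replicate 1.

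With full-length mHTT in glia, ninaD had values of 174, 278 and 265 in mHTT heads at day 18, against 191, 167 and 189 in control heads. At day 20 the values were 281, 215 and 284 in mHTT heads, against 78.7, 73.9 and 77.8 in control heads. At day 22 they were 266, 221 and 259.6 in mHTT heads, against 92.9, 108 and 207 in control heads. Across the 3 ages the mHTT means stayed between 239 and 260.1, while the control mean was lowest at day 20 (76.8 ± 2.54, SD, n = 3). The change was 0.36, 1.74 and 0.95 at the 3 ages and 1.02 on average (SE 0.13). The groups overlapped at day 18 and were apart at days 20 and 22, and without the highest day-22 control library, replicate 3, the change at day 22 was 1.30. Without the farthest library, control day 22 replicate 1, the change at day 22 was 0.73 and the average was 0.94.

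With N-terminal mHTT in neurons, ninaD had values of 175, 162 and 212 in mHTT heads at day 7, against 95.1, 81.7 and 82.8 in control heads. At day 9 the values were 268, 224 and 194 in mHTT heads, against 117, 169 and 119.5 in control heads. At day 11 they were 112, 150.3 and 135 in mHTT heads, against 121, 124 and 109.9 in control heads. The groups were apart at days 7 and 9 and overlapped at day 11. The change was 1.07, 0.76 and 0.15 in order of age and 0.66 on average (SE 0.10).

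With full-length mHTT in neurons, ninaD was at its lowest level. At day 18 it had values of 58.9, 113 and 94.9 in mHTT heads, against 56.2, 41.5 and 33.2 in control heads. At day 20 the values were 71.5, 126 and 112 in mHTT heads, against 80.9, 76.3 and 54.5 in control heads. At day 22 they were 202, 106 and 121 in mHTT heads, against 132, 85.9 and 79.0 in control heads. The groups were narrowly apart at day 18 and overlapped at the later ages. The change was 0.99, 0.52 and 0.50 in order of age and 0.67 on average (SE 0.19). Without the farthest library, mHTT day 22 replicate 1, the change at day 22 was 0.23 and the average was 0.58. That library also held the highest summed level of the 19 gut markers, 104459 against 3166 and 3377 in the other mHTT libraries of its age. Sums also reached 20974 in the controls of this model, 56086 in glial full-length controls and 44950 in neuronal N-terminal mHTT heads. The part of gut RNA in the ninaD values was not tested.

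Control heads were compared by fitting the 36 control libraries with 12 group means. The rise for which ninaD was chosen was measured against these same libraries, so its control values too are given as description and without a test. ninaD averaged 131.6 ± 55.7 in glial-driver controls of 18 to 22 days and 332 ± 75.5 in those of 5 to 8 days (SD, n = 9 each). The older heads lay at 73.9 to 207 and the younger at 227 to 459, with no overlap, and the older minus younger difference was -1.41 on the log2 scale (SE 0.14). Neuronal-driver controls of 18 to 22 days averaged 71.1 ± 29.5, against 113 ± 26.4 in those of 7 to 11 days (SD, n = 9 each). Their ranges overlapped, 33.2 to 132 against 81.7 to 169, and the difference was -0.74 (SE 0.14). The older neuronal controls were kept at 29 °C and the younger at 28 °C, so age and temperature cannot be told apart for this driver, whereas all glial controls were kept at 28 °C.

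ninaD also differed between the driver lines without any huntingtin insert. At day 7, at 28 °C in both, it averaged 86.5 ± 7.44 in neuronal-driver controls and 290.3 ± 55.4 in glial-driver controls (SD, n = 3 each), a difference of -1.72 (SE 0.24). At 18 to 22 days the difference was -0.87 (SE 0.14), with neuronal controls kept 1 °C warmer. Of the 6 haemocyte markers, 3 were lower and none higher in neuronal than in glial controls at day 7, but 2 were higher and none lower at 18 to 22 days. With age 5 of the 6 fell in glial controls and 2 fell in neuronal controls, and none rose, or 1 rose in neuronal controls without the farthest libraries. Of 7 fat body markers tested, 5 fell and 1 rose with age in glial controls, or 5 fell and 2 rose without the farthest libraries. In neuronal controls 4 fell and 1 rose. Between drivers 1 was higher in neuronal controls at day 7, and 5 were higher at 18 to 22 days. None was lower, or 1 at day 7 without the farthest libraries. The part of these cells in the ninaD differences was not tested. Of the 19 gut markers 5 rose and none fell in older glial controls, or 3 rose and 1 fell without the farthest libraries. In older neuronal controls 10 rose and 1 fell, or 14 rose and 1 fell without the farthest libraries. Between drivers none was called at day 7 or at 18 to 22 days, or 1 higher and 1 lower at 18 to 22 days without the farthest libraries. The part of gut RNA in the ninaD differences was not tested.

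**Figure D2:**
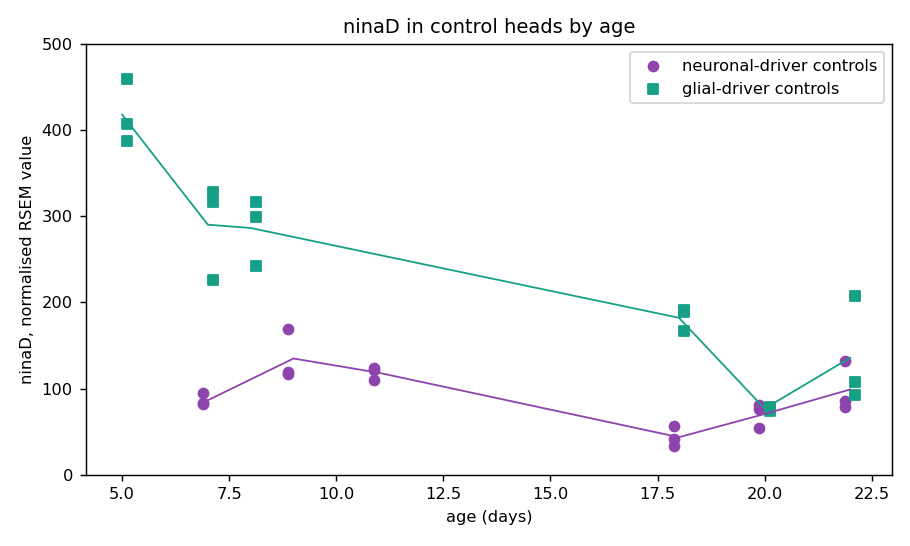
ninaD in the 36 control libraries (y axis, deposited normalised RSEM value; x axis, age in days; lines join the means of 3 libraries), with neuronal-driver controls in purple and glial-driver controls in green. Glial controls of 5 to 8 days lie at 227 to 459 and all other control groups at 33.2 to 207.

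santa-maria, the other scavenger receptor of the set, fell in the glial N-terminal model and rose in the neuronal N-terminal model. The fall was found over the 3 ages, where it fell by 0.26 (SE 0.06, limma adjusted p = 0.0040), averaging 2074 ± 218 in mHTT heads and 2474 ± 214 in control heads (SD, n = 9 each). At day 5 it had values of 1961, 2181 and 1883 in mHTT heads, against 2787, 2562 and 2645 in control heads. The groups did not overlap, and day 5 was the age at which it was called (-0.41, SE 0.10, limma adjusted p = 0.0150). That call was lost when the 72 libraries were fitted together (adjusted p = 0.0571) and in 3 fits that each left out 1 library of that age. Under the neuronal driver, with N-terminal mHTT, santa-maria rose by 0.19 (SE 0.04, limma adjusted p = 0.00745), with averages of 2717 ± 229 in mHTT heads and 2380 ± 176 in control heads (SD, n = 9 each). Values at day 11 were 3053, 3006 and 2859 in mHTT heads, against 2419, 2359 and 2434 in control heads. All mHTT values exceeded all control values at that age (0.31, SE 0.07, limma adjusted p = 0.0226). Fitted with all 72 libraries, the adjusted p was 0.071 over the ages and 0.0693 at day 11. The day-11 call was also lost with the 6 libraries of that age alone (adjusted p = 0.578) and without mHTT replicate 1, 2 or 3 (adjusted p = 0.0972, 0.0773 and 0.0531). In the full-length models the change was 0.10 (glial, limma adjusted p = 0.229) and -0.05 (neuronal, limma adjusted p = 0.827, and 0.07 without the farthest library). Without glial control day 22 replicate 2 the glial full-length change was called (0.16, adjusted p = 0.0111).

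ninaB, the carotenoid-cleaving enzyme, fell in both glial models, and the N-terminal change was higher than the full-length change by 0.39 (SE 0.12, limma adjusted p = 0.00939). In the glial full-length model it had values of 1595, 1454 and 1467 in mHTT heads at day 18, against 2393, 2264 and 2217 in control heads. At day 20 the values were 1405, 1509 and 1393 in mHTT heads, against 2119.7, 2157 and 2517 in control heads. At day 22 they were 1386, 1108 and 1476 in mHTT heads, against 1592, 2187 and 2198 in control heads. Every mHTT library lay below every control library at each age. The change was -0.61, -0.65 and -0.58 at the 3 ages (limma adjusted p = 0.00145, 7.92e-04 and 0.00138) and -0.61 on average (SE 0.07, limma adjusted p = 1.91e-06). Fitted on the 6 libraries of its age alone, day 22 was not called (adjusted p = 0.0704).

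With N-terminal mHTT in glia, ninaB fell by 0.23 over the ages (SE 0.05, limma adjusted p = 0.0032), averaging 1799 ± 160.0 in mHTT heads and 2118 ± 330.4 in control heads (SD, n = 9 each). The change was called at day 5 (-0.38, SE 0.09, limma adjusted p = 0.00889), where the values were 2038, 1846 and 1916 in mHTT heads, against 2449, 2395 and 2707 in control heads. It was not called at day 5 when the 72 libraries were fitted together (adjusted p = 0.0954) or without control replicate 3 (adjusted p = 0.0533). ninaB rose with N-terminal mHTT in neurons by 0.18 (SE 0.05, limma adjusted p = 0.0364), a call that was lost with the replicate number as a block (adjusted p = 0.0562) and when the 72 libraries were fitted together (adjusted p = 0.0896). It was also lost in 13 of 18 fits that each left out 1 library. Of the single ages day 11 alone was called (0.47, SE 0.09, limma adjusted p = 0.00790). ninaB values there were 2358, 2127 and 2392 in mHTT heads, against 1467, 1792 and 1712 in control heads. The groups did not overlap there, while the changes at days 7 and 9 were -0.00 and 0.08. Means at days 7, 9 and 11 were 2392, 2206 and 2292 in mHTT heads, against 2389, 2091 and 1657 in control heads. By the moderated F test the change did not differ between these ages (adjusted p = 0.376), but it did without the farthest library (adjusted p = 0.0240). With the 6 libraries of day 11 alone the change was not called (adjusted p = 0.572). In the neuronal full-length model the change was 0.11 (limma adjusted p = 0.62), and without the farthest library it was 0.23 and called (adjusted p = 0.00504).

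ninaB shares exonic sequence with 2 genes on the other strand, Adgf-D and f-cup, and santa-maria with CG5973. The kit kept strand, but whether counting used it is not given in the sources used here, so reads of these partners may enter the values. Adgf-D changed by -0.73 with N-terminal and by -0.52 with full-length mHTT in glia (limma adjusted p = 4.16e-04 and 1.19e-05), the models in which ninaB fell. f-cup changed by 0.06 and -0.21 in those models (limma adjusted p = 0.224 and 0.00815). CG5973 fell by 0.18 in the glial N-terminal model (limma adjusted p = 0.0220) and rose by 0.64 in the glial full-length model (limma adjusted p = 7.82e-07), in which santa-maria was not called. ninaA overlaps CG15824, whose median control value was 9.81, and ninaD, ninaG and pinta overlap no annotated gene.

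ninaG, the oxidoreductase, moved in opposite directions in the glial models. Its values with N-terminal mHTT in glia were 1604, 1624 and 1513 in mHTT heads at day 5, against 1796, 1439 and 2114 in control heads. At day 7 the values were 1447, 1448 and 1460.1 in mHTT heads, against 958, 1144 and 1008 in control heads. At day 8 they were 1585, 1607 and 1855 in mHTT heads, against 971, 1109 and 894 in control heads. The groups overlapped at day 5 and were apart at days 7 and 8, when ninaG rose by 0.49 and 0.76 (limma adjusted p = 0.00973 and 4.02e-04). Over the ages it rose by 0.37 (SE 0.07, limma adjusted p = 7.02e-04). The mean at days 5, 7 and 8 was 1580.4, 1452 and 1683 in mHTT heads, against 1783, 1037 and 991 in control heads, so the day-5 controls lay above the later ones.

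ninaG fell with full-length mHTT in glia, by 0.45 (SE 0.09, limma adjusted p = 8.72e-04), averaging 989.5 ± 212 in mHTT heads and 1369 ± 373 in control heads (SD, n = 9 each). The values at day 18 were 1248, 1237 and 1263 in mHTT heads, against 1995, 1732 and 1622 in control heads. At day 22 they were 805, 689.8 and 879 in mHTT heads, against 805, 1137 and 1442 in control heads. The groups were apart at day 18 and overlapped at day 22, and the change was called at both ages (-0.51 and -0.48, limma adjusted p = 0.0335 and 0.0318) but not at day 20 (-0.36, limma adjusted p = 0.137). With the label prefix as a covariate neither age was called (adjusted p = 0.0600 and 0.0567). Without control replicate 3 the day-22 change was -0.28 and not called (adjusted p = 0.171), nor was it with the 6 libraries of that age alone (adjusted p = 0.207). The day-18 call was lost in 5 fits that each left out 1 library of that age, and the day-22 call in 4. Without the farthest library, control day 22 replicate 1, all 3 ages were called. The changes were then -0.51, -0.36 and -0.70 in order of age (limma adjusted p = 0.00341, 0.0297 and 4.55e-04).

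ninaG fell with N-terminal mHTT in neurons, by 0.57 (SE 0.07, limma adjusted p = 9.41e-05). The values at day 7 were 869, 829 and 745 in mHTT heads, against 1473, 1403 and 1177 in control heads. At day 9 they were 843, 761 and 882 in mHTT heads, against 1554, 1293 and 1406 in control heads. At day 11 they were 935, 816 and 910.3 in mHTT heads, against 883, 1155 and 1086 in control heads. The groups were apart at days 7 and 9 (-0.73 and -0.77, limma adjusted p = 0.00562 and 0.00219) and overlapped at day 11 (-0.22, limma adjusted p = 0.195). In the neuronal full-length model ninaG averaged 862 ± 172 in mHTT heads and 983 ± 98.1 in control heads (SD, n = 9 each), and the change of -0.22 was not called (SE 0.11, limma adjusted p = 0.177). Without the farthest library it was -0.12 (adjusted p = 0.0978).

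pinta, the retinoid carrier of pigment cells, rose in the glial N-terminal model by 0.39 over the ages (SE 0.04, limma adjusted p = 1.36e-06). At day 5 it had values of 1345, 1374 and 1389.5 in mHTT heads, against 1047, 1049 and 1177 in control heads. At day 7 the values were 1708, 1643 and 1525 in mHTT heads, against 1243, 1215 and 1195 in control heads. At day 8 they were 1453, 1634 and 1574 in mHTT heads, against 1109.6, 1162 and 1206 in control heads. No control library reached the mHTT range at any of these ages, and the change was called at each (0.33, 0.42 and 0.42, limma adjusted p = 0.00345, 4.69e-04 and 5.19e-04). The day-5 call was lost when the 72 libraries were fitted together (adjusted p = 0.0922) and the day-7 call with the 6 libraries of that age alone (adjusted p = 0.0591). pinta was not called in the glial full-length model (0.11, limma adjusted p = 0.181), the neuronal N-terminal model (-0.07, limma adjusted p = 0.565) or the neuronal full-length model (-0.14, limma adjusted p = 0.326, and -0.066 without the farthest library). The neuronal N-terminal change was -0.13 and called without control day 11 replicate 2 (adjusted p = 0.0332). The glial full-length change was 0.16 and called without control day 22 replicate 3 (adjusted p = 0.0302).

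In glial full-length heads the level of pinta was high at day 18 in both genotypes. Its values were 2196, 2081 and 2044 in mHTT heads at day 18, against 2073, 1897 and 1853 in control heads. At day 20 they were 1288, 1053 and 1166 in mHTT heads, against 1143, 1125 and 1175 in control heads. At day 22 they were 1292, 1129 and 1277 in mHTT heads, against 861, 1112 and 1300.2 in control heads. The genotypes overlapped at each of these ages.

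ninaA, the rhodopsin chaperone, fell in the glial full-length and the neuronal N-terminal model. In the neuronal N-terminal model its values at day 7 were 1645, 1669 and 1522 in mHTT heads, against 3180.0, 3153 and 2640.0 in control heads. At day 9 they were 1549, 1446 and 1783 in mHTT heads, against 3378, 2683 and 3043 in control heads. At day 11 they were 1869.9, 1713 and 1866 in mHTT heads, against 2069.9, 9061 and 2530.5 in control heads. All 9 mHTT values lay below all 9 control values of the model. The change over the ages was -0.94 (SE 0.22, limma adjusted p = 0.00912). Without the control library at 9061 it was -0.72 with a smaller error (SE 0.06, adjusted p = 3.55e-07). At single ages the change was not called with all 18 libraries (-0.89, -0.93 and -0.996, limma adjusted p = 0.416, 0.243 and 0.117). Without that library it was called at days 7 and 9 (adjusted p = 3.76e-05 and 1.67e-05). The day-11 change was then -0.33 and not called (adjusted p = 0.0540), so its size at day 11 rested on that library.

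ninaA fell with full-length mHTT in glia by 0.39 (SE 0.07, limma adjusted p = 3.52e-04). At day 18 it had values of 3727, 3329 and 3544 in mHTT heads, against 4376, 4129.5 and 4526 in control heads. At day 20 the values were 2326, 2374 and 2478 in mHTT heads, against 3127, 2963 and 3465 in control heads. At day 22 they were 2194, 1948 and 2293 in mHTT heads, against 2282, 2978 and 3721 in control heads. The groups overlapped at day 22, by the farthest library of the model, and were apart at days 18 and 20. The change was called at days 20 and 22 (-0.41 and -0.46, limma adjusted p = 0.0276 and 0.0109) and, without the farthest library, also at day 18 (-0.30, adjusted p = 0.0160, against 0.112 with it). Without that library the day-22 change was -0.64 (limma adjusted p = 8.12e-05). When the 72 libraries were fitted together neither the day-20 nor the day-22 call held (adjusted p = 0.391 and 0.233). The day-20 call was lost in 5 fits that each left out 1 library of that age. At day 22 it was lost with that age alone (adjusted p = 0.154), without mHTT replicate 2 (adjusted p = 0.0544) and without control replicate 3, where the change was -0.28 (adjusted p = 0.0513). In the glial N-terminal and neuronal full-length models the changes were -0.02 and -0.19 (limma adjusted p = 0.868 and 0.343), or -0.087 and -0.067 without the farthest library of each.

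**Figure D3:**
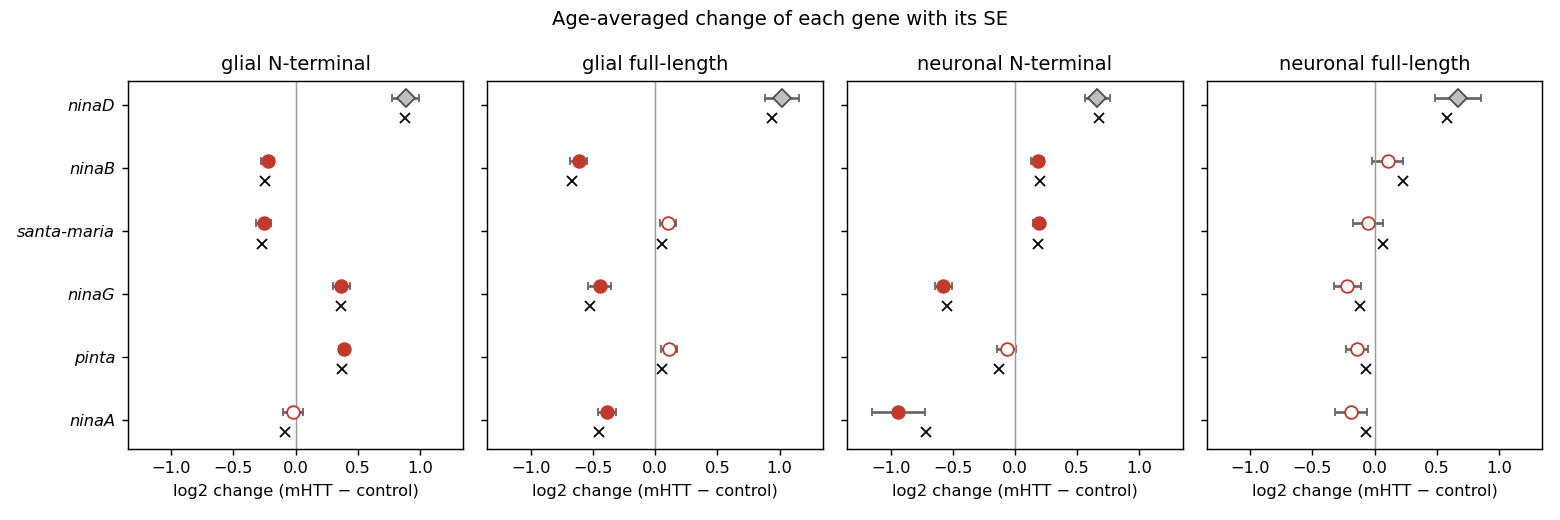
Change over the 3 ages (x axis, log2, mHTT minus control) of each gene in each model, with its SE. Filled red circles passed the limma test, open ones did not, grey diamonds mark ninaD, which was not tested, and crosses give the change without the farthest library. In the neuronal N-terminal model ninaA is at -0.94 with all libraries and -0.72 without the farthest.

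Counted over the 5 genes tested, 4 changed in the glial N-terminal model, 2 higher and 2 lower, where 32.5% of all genes tested were called. With full-length mHTT in glia 3 changed, all of them lower, where 44.4% of all genes were called and 25.1% were called lower. With N-terminal mHTT in neurons 4 changed, 2 higher and 2 lower, where 13.6% of all genes were called. In the neuronal full-length model limma called none of the 5, nor had any an unadjusted p under 0.05, where 18.9% of all genes were called. Without the farthest library of that model 1 of the 5 was called, where calls over all genes rose from 1996 to 3702. The median change of the 5 genes was -0.02, -0.39, -0.07 and -0.14 in these models in this order, beside 0.06, -0.04, 0.01 and 0.00 over all genes tested.

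At single ages of the glial N-terminal model 3 of the 5 were called at day 5, 2 at day 7 and 2 at day 8, where 13.5%, 17.8% and 10.5% of all genes were called. For full-length mHTT in glia 2, 2 and 3 were called at days 18, 20 and 22, where 20.2%, 20.4% and 31.5% of all genes were called. For N-terminal mHTT in neurons 1, 1 and 2 were called at days 7, 9 and 11, where 1.98%, 4.32% and 7.77% of all genes were called. For full-length mHTT in neurons limma called none at days 18, 20 and 22, where 9.2%, 4.14% and 7.65% of all genes were called, and 1 gene, ninaG at day 22, had an unadjusted p under 0.05. Whether a change differed between the ages of a model was asked with a moderated F test. None of the 5 genes passed it in any model, 3 gene and model combinations had an unadjusted p under 0.05, and the share of all genes that passed it was 0.27% and 0.864% for glial N-terminal and full-length mHTT and 0.00984% and 0.731% for neuronal N-terminal and full-length mHTT. ninaG in the glial N-terminal model came closest (limma adjusted p = 0.0582). Without the farthest libraries 3 combinations passed, ninaG with glial N-terminal mHTT (adjusted p = 0.0342) and, with neuronal N-terminal mHTT, ninaB (adjusted p = 0.0240) and ninaG (adjusted p = 0.0478). Over the settings tried up to 107 and 443 of all genes passed in these 2 models, against 28 and 1 at the settings used above.

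Whether a change with mHTT differed between models was tested by fitting the 72 libraries together, with 24 group means. Between the N-terminal models, neuronal minus glial, all 5 genes differed, 2 higher and 3 lower, where 29.6% of all genes differed. ninaG differed by -0.94 (SE 0.13, limma adjusted p = 4.50e-08) and ninaA by -0.92 (SE 0.20, limma adjusted p = 3.57e-04), or by -0.63 for ninaA without the farthest libraries. Between the full-length models, neuronal minus glial, 1 gene differed, where 21% of all genes did. This was ninaB, by 0.72 (SE 0.12, limma adjusted p = 3.39e-06). Without the farthest libraries ninaG and ninaA also differed there (0.41 and 0.38, adjusted p = 4.55e-04 and 3.80e-04). Over the settings tried up to 4921 genes differed there, against 2304 at the settings used above.

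Between the glial models, N-terminal minus full-length, 4 genes differed, 3 higher and 1 lower, where 28.1% of all genes differed. ninaA was not called (0.37, limma adjusted p = 0.191). Fitted on the 36 glial libraries alone, ninaA was called (adjusted p = 0.011). Other fits that called ninaA took in label prefix (0.38, adjusted p = 0.0182) or left out neuronal control day 11 replicate 2 (adjusted p = 0.0249), a library of neither model. Without the farthest libraries ninaA was at 0.36 and called (adjusted p = 5.78e-04), where calls over all genes rose from 3082 to 5467. ninaG had the largest difference of the 5 (0.81, SE 0.13, limma adjusted p = 9.17e-07). For pinta the difference of 0.28 (limma adjusted p = 0.0353) was not called under median-ratio rescaling (0.19, adjusted p = 0.178), under quantile normalisation (adjusted p = 0.0628) or in 10 fits that each left out 1 library. Between the neuronal models, N-terminal minus full-length, ninaG and ninaA differed (-0.36 and -0.75, limma adjusted p = 0.0480 and 0.00724), 2 of the 5, where 15.6% of all genes differed. With the 36 libraries of the neuronal models alone neither was called (adjusted p = 0.0949 for ninaG and 0.0691 for ninaA). The ninaG call was also lost under quantile normalisation (adjusted p = 0.101), with no filter (adjusted p = 0.0551), with label prefix added to the fit (adjusted p = 0.0555) and in 45 of 72 fits that each left out 1 library. Ages differed in each of these comparisons except that of the full-length models, and temperature differed in those with the neuronal full-length model, so driver or construct cannot be told apart from them.

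In control heads 1 of the 5 genes other than ninaD was called with age under the glial driver, where 21.4% of all genes were. This was pinta, higher by 0.21 at 18 to 22 days than at 5 to 8 days (SE 0.07, limma adjusted p = 0.0302). The call was lost under median-ratio rescaling (adjusted p = 0.0710) and in 8 fits that each left out 1 library. The pinta control means were 1091, 1218 and 1159 at days 5, 7 and 8, and 1941, 1147 and 1091 at days 18, 20 and 22, so of the older ages day 18 alone lay above the young heads. Under the neuronal driver 2 of the 5 fell and none rose, where 23.1% of all genes were called and 10.1% fell. These were ninaG (-0.36, SE 0.09, limma adjusted p = 0.00632) and pinta (-0.31, SE 0.07, limma adjusted p = 0.00228). The older neuronal controls were also the warmer ones. Between drivers limma called 0 of the 5 at day 7, where 5.09% of all genes were called and 3 of the 5 had an unadjusted p under 0.05, and 2 were lower in neuronal controls at 18 to 22 days, where 18.9% of all genes were called and 9.38% were lower. These were ninaG (-0.43, SE 0.09, limma adjusted p = 9.94e-04) and ninaA (-0.53, SE 0.17, limma adjusted p = 0.0287), the call on ninaA being lost in 5 fits that each left out 1 library (adjusted p up to 0.0696). Without the farthest libraries 3 of the 5 were called with age under the glial driver, 4 with age under the neuronal driver, 3 between drivers at day 7 and 3 at 18 to 22 days. Calls over all genes also depended on the setting. Over the settings tried they reached 4717, 4521, 2055 and 4866 in these comparisons, against 2275, 2456, 542 and 2007 at the settings used above.

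The opsins, the proteins that carry the chromophore, were examined as 7 genes, ninaE (Rh1) and Rh2 to Rh7. All 7 rose in the glial N-terminal model, with a median of 0.37, and ninaE rose by 0.50 (limma adjusted p = 0.00117). In the glial full-length model 1 of the 7, Rh5, fell (-0.31, limma adjusted p = 3.12e-04), and ninaE was at -0.08 (limma adjusted p = 0.633), while 3 fell without the farthest library. In the neuronal N-terminal model 3 fell and none rose, among them ninaE (-0.68, limma adjusted p = 8.19e-05) and Rh4 (-0.42, limma adjusted p = 0.00436). In the neuronal full-length model Rh4 and Rh6 fell (-0.69 and -0.41, limma adjusted p = 7.82e-04 and 0.0181) and Rh5 rose (0.62, limma adjusted p = 0.00168). Rh4, Rh5 and Rh6 are opsins of the central photoreceptors, and ninaE encodes that of the outer ones.

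Of 7 genes of opsin maturation and trafficking, 5 rose in the glial N-terminal model. Cnx99A, a calnexin that like NinaA acts in Rh1 folding, rose there by 0.52 and fell by 0.42 in the glial full-length and 0.47 in the neuronal N-terminal model (limma adjusted p = 1.85e-05, 1.19e-06 and 2.98e-04). XPORT, a chaperone of Rh1 and the TRP channel, rose by 0.57 and fell by 0.41 and 0.46 in the same models (limma adjusted p = 2.28e-07, 6.19e-04 and 0.00507). ninaA also fell in the glial full-length and neuronal N-terminal models, and was at -0.02 in the glial N-terminal model. Full-length mHTT in glia went with 3 of the 7 lower and 1 higher by the test, in the neuronal N-terminal model 2 fell, and in the neuronal full-length model 1 rose, Calr (0.12, limma adjusted p = 0.0373).

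Of the retinoid enzymes of pigment cells, rdhB, a retinol dehydrogenase, fell by 0.65 in the glial full-length and rose by 0.53 in the neuronal N-terminal model (limma adjusted p = 1.12e-06 and 1.47e-04). ninaB fell and rose in the same models. In the glial N-terminal and neuronal full-length models rdhB was at -0.14 and -0.31 (limma adjusted p = 0.154 and 0.121), and the other enzyme of this list, Pdh, was called in none of the 4 models when every library of the model was kept.

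The other class B scavenger receptors, relatives of NinaD and Santa-maria, were a list of 12 genes, 11 of which passed the filter on low values. In the glial N-terminal model 2 rose and 7 fell, with a median of -0.30. In the glial full-length model 8 rose and none fell, with a median of 0.52, and dsb had the largest change of the list (1.82, limma adjusted p = 6.97e-12). With N-terminal mHTT in neurons 2 rose and 3 fell, or 4 and 5 without the farthest library, and CG2736 fell by 0.79 (limma adjusted p = 2.90e-04). In the neuronal full-length model CG7227 alone fell (-0.79, limma adjusted p = 0.00218), or 1 fell and 2 rose without the farthest library. ninaD was at 0.88, 1.02, 0.66 and 0.67 in these models, given as a description since it was chosen on these changes.

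**Figure D4:**
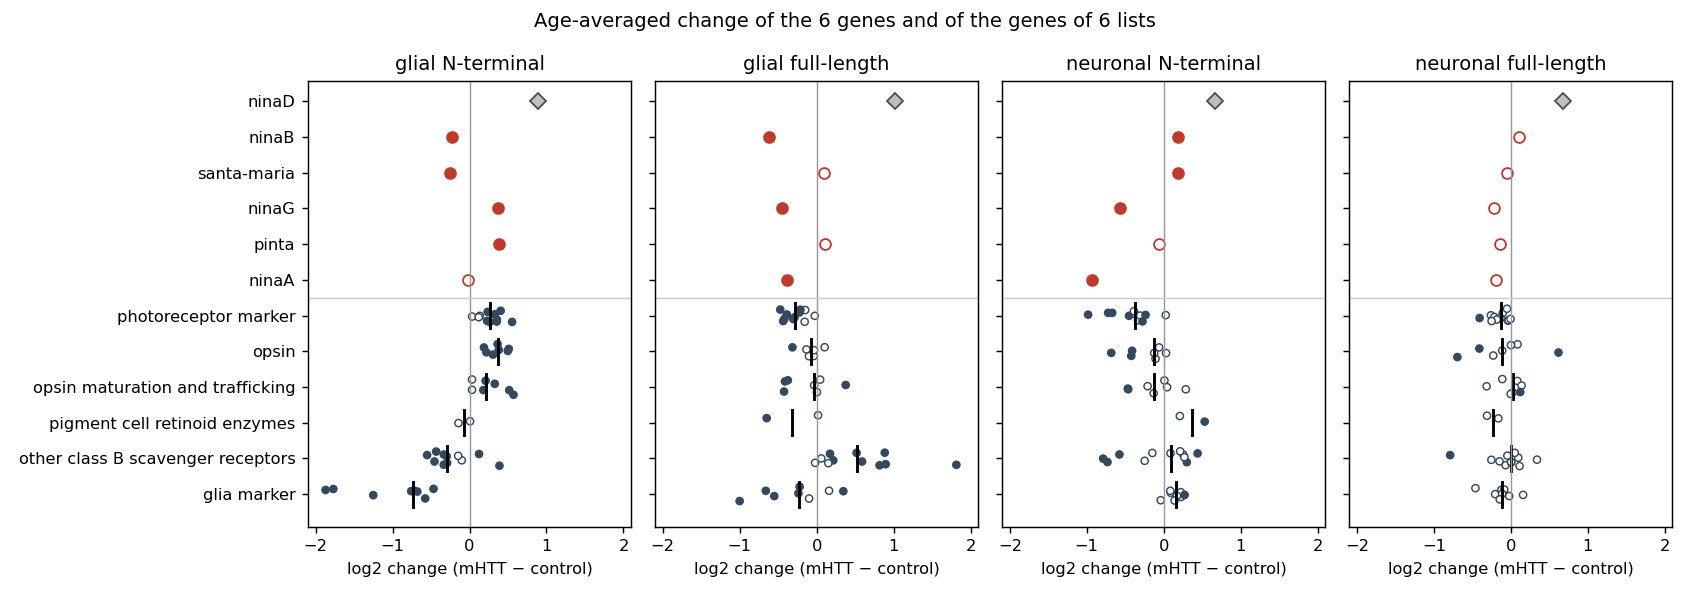
Change over the 3 ages (x axis, log2, mHTT minus control) in each model for the 6 genes (top; red filled, passed the limma test; open, did not; grey diamond, ninaD, not tested) and for each gene of 6 lists (bottom; filled, passed; bar, list median). The opsins lie right of 0 in the glial N-terminal model (median 0.37), and the other class B scavenger receptors have a median of -0.30 there, with 2 of 11 called higher and 7 lower, and of 0.52 in the glial full-length model, with 8 called higher and none lower.

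Marker lists of the cell types in a head moved with several of these results. Of 11 photoreceptor markers 8 rose and none fell in the glial N-terminal model (9 rose without the farthest library). In the glial full-length model 8 fell (10 without the farthest library). In the neuronal N-terminal model 6 fell (10 without the farthest library), and in the neuronal full-length model 1 fell (2 without the farthest library). Their summed level was 517381 to 631222 in neuronal N-terminal mHTT heads and 722967 to 1220890 in the controls, where ninaA and ninaG fell. It was 623348 to 1021000 in glial full-length mHTT heads and 628101 to 1035180 in the controls. No photoreceptor marker was at 0 in any library. The part of these markers in the results on ninaA and ninaG was not tested.

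Of 8 glia markers all 8 fell in the glial N-terminal model, summing to 21234 to 24618 in mHTT heads and 33250.1 to 41335 in control heads, and 5 fell and 1 rose in the glial full-length model. These are the models in which ninaB fell, and the part of glial markers in that result was not tested. In the glial full-length model, all 6 haemocyte markers and all 6 fat body markers tested rose, and 11 of 14 gut markers fell and 2 rose. The haemocyte markers summed to 8216 to 13194 in mHTT heads and 3612 to 6943 in control heads there, and 1 to 9 of the 19 gut markers were at 0 in each mHTT library, against 0 to 2 in each control library. Of the 6 haemocyte markers 3 rose with N-terminal mHTT in glia, 2 rose with N-terminal mHTT in neurons and 2 rose with full-length mHTT in neurons, and none fell in any model. Of the fat body markers tested, 3 of 6 fell with N-terminal mHTT in glia, 5 of 6 fell and 1 rose with N-terminal mHTT in neurons (median -0.77), and 1 of 7 rose and 1 fell with full-length mHTT in neurons. Their part in the ninaD differences was not tested. In the glial full-length model the gut list had a median change of -3.05. Without the farthest library the median was -2.31, with 9 lower and 2 higher. The summed level of the 19 gut markers went the other way in its median, 5575 in mHTT heads and 3464 in control heads of this model. Its ranges overlapped, 3559 to 7102 against 1880 to 56086. Of the 11 that fell there alphaTry fell by 3.41, and of the 2 that rose Amy-p rose by 1.51 (limma adjusted p = 3.27e-04 and 1.88e-04). In the glial N-terminal model, with ninaD higher by 0.88, 1 gut marker rose and 1 fell of 11 tested. With N-terminal mHTT in neurons none of 8 tested was called. With full-length mHTT in neurons 1 of 17 rose and none fell, or 1 rose and 9 fell without the farthest library.

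Over the 24 group medians, ninaG and ninaA had the most similar levels of the 6 genes (Pearson r = 0.83 on the log2 scale), and the others ranged from -0.60 (santa-maria with ninaG) to 0.48 (ninaG with pinta). ninaD and ninaB ran opposite to each other (r = -0.54). These are descriptions over groups that share libraries, drivers and ages. Among 8469 genes with a mean of at least 100, those most like ninaD were CG42711, LanB1 and Sema-2a (r = 0.86 each). Those most like ninaG were cindr, CG3061 and CdsA (0.87, 0.87 and 0.86), and those most like ninaA were CdsA, CG8889 and Eaat2 (0.87, 0.86 and 0.85). For ninaB they were CG31810, kon and fng (0.83, 0.82 and 0.82), for santa-maria CG10365, Msr-110 and Brca2 (0.79, 0.77 and 0.74), and for pinta CG1840, CG34180 and CG18815 (0.74 each). CdsA was thus close to both ninaG and ninaA.

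Ordered by group mean, ninaD was highest in the 3 glial N-terminal mHTT groups and next in the 3 young glial control groups. The mean of the glial N-terminal mHTT group at day 7 was 824 ± 50.4 and that at day 8 was 643 ± 132 (SD, n = 3 each), with ranges that did not overlap. At day 5 the mHTT group (419 ± 95.0) and its control group (418 ± 37.2) were level (SD, n = 3 each). The glial full-length mHTT groups followed at 260.1 ± 39.1 at day 20, 249 at day 22 and 239 ± 56.7 at day 18 (SD, n = 3 each), neighbours whose ranges overlap. The lowest were the glial control group at day 20 (76.8 ± 2.54), the neuronal control group at day 20 (70.6 ± 14.1) and the neuronal control group at day 18 (43.6 ± 11.6, SD, n = 3 each).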

How the data were processed

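The authors deposited 1 table of signal values per gene and library, which its file name marks as normalised RSEM gene estimates, and the 75th percentile of every library is 1000. Per the submitters' processing notes, CASAVA 1.8.2, Bowtie 0.12.0, RSEM 1.1.19, DESeq2 and the build dm3 were used, with roles not given. Neither the annotation nor how strand was used in counting is given in the sources used here. Read counts were not used, so depth per library is unknown and no counting interval is given.

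The analysis used log2(value + 1), which understates the change of low genes, with limma 3.58.1 in R 4.3.3 (group means, eBayes with a mean-variance trend). A gene was tested if 3 or more libraries of the fit had a value of 10 or higher, and called at a Benjamini-Hochberg adjusted p under 0.05 over all genes tested. The fits were tested on simulated data. Exon lengths and overlaps came from Ensembl's BDGP6 annotation by gene identifier. For full-length mHTT in neurons the library titles name ages of 7, 9 and 11 days; the 18, 20 and 22 days of their age field and the growth protocol were used.

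The 6 genes and all lists were chosen with earlier results of these data known, and so were the alternatives. Named beside the 6 genes are the 3 genes whose group medians correlate best with each, and up to 4 genes per pathway list, ranked by the number of models in which they were called. A few listed markers and the overlapping genes were named after their values were seen. Other settings tried were a pseudocount of 0.1 or 10, a filter on the mean (100) or none, quantile normalisation, median-ratio rescaling, label prefix as covariate, a replicate block, other sets of libraries and 1 library left out at a time. Of 36 pairs of same-numbered mHTT and control libraries 9 had deviations that correlated over 0.1, among them all 3 pairs of glial N-terminal day 7 and all 3 of no other age, so the numbers were not taken to pair libraries.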

Additional observations from a re-analysis of the deposited data

Results flagged for a closer look

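The change with mHTT differed between models for 12 combinations of gene and comparison in the fit of all 72 libraries, each with a limma adjusted p under 0.05. For neuronal minus glial full-length models this was ninaB (0.72). For neuronal minus glial N-terminal models these were ninaB (0.41), santa-maria (0.45), ninaG (-0.94), pinta (-0.45) and ninaA (-0.92). For N-terminal minus full-length glial models these were ninaB (0.39), santa-maria (-0.36), ninaG (0.81) and pinta (0.28). For N-terminal minus full-length neuronal models these were ninaG (-0.36) and ninaA (-0.75). ninaD, chosen on its change in all 4 models, was not tested for such differences.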

How the results depend on the processing

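Over the ages, the number of the 5 genes called was 4 and 3 for glial N-terminal and full-length mHTT, and 4 and 0 for neuronal N-terminal and full-length mHTT. It was 2 for neuronal N-terminal mHTT when the 72 libraries were fitted together, and 1 for neuronal full-length mHTT without the farthest library. Leaving out 1 library at a time it was 4 and 3 to 4 in glia, and 3 to 5 and 0 to 1 in neurons. Calls at single ages numbered 7 and 7 in glia, and 4 and 0 in neurons, with 4 for glial N-terminal mHTT when all 72 libraries were fitted and 2 for neuronal full-length mHTT without the farthest library. Leaving out 1 library they ranged over 6 to 8 and 5 to 9 in glia, and 3 to 6 and 0 to 2 in neurons. Calls of a change that differed between ages numbered 0, but 1 under quantile normalisation, 3 with the label prefix as a covariate, 3 without the farthest libraries and 0 to 2 with 1 library left out. Calls of a difference between models numbered 12, or 10 to 13 with 1 library left out. Without the farthest libraries none of the 12 was lost. ninaG and ninaA between the full-length models and ninaA between the glial models were then also called. In controls, over the 5 genes other than ninaD, calls with age under the glial driver numbered 1, but 3 without the farthest libraries. That call, on pinta, was lost under median-ratio rescaling and in 8 fits with 1 library left out. Under the neuronal driver calls numbered 2, but 4 without the farthest libraries. There ninaB and santa-maria were also called under quantile normalisation, and ninaB or ninaA in some fits with 1 library left out. Between drivers at day 7 calls numbered 0, but 3 without the farthest libraries. ninaB and pinta were called at day 7 with the label prefix and in some fits with 1 library left out. At 18 to 22 days calls numbered 2, or 3 without the farthest libraries. With 1 library left out, the ninaA call was lost in 5 fits and pinta was called in some. Signs reversed for ninaD at day 5, given as a description, and for changes not called with every library in. Without the farthest libraries these were santa-maria with neuronal full-length mHTT (0.0700 over ages, 0.32 at day 22), between full-length models (0.0122) and with age in glial controls (0.0370), ninaB with neuronal full-length mHTT at day 22 (0.37) and, between neuronal models, ninaB (-0.0285) and pinta (-0.0623). Others were ninaB at day 22 under median-ratio rescaling (0.00325), santa-maria with age in glial controls with the label prefix (0.0386) and ninaA between drivers at day 7 under quantile normalisation (-0.0350). With 1 library left out, such changes ranged over -0.0869 to 0.0345 for ninaA with glial N-terminal mHTT, -0.19 to 0.10 for ninaD at day 5, -0.23 to 0.37 for ninaB and -0.23 to 0.32 for santa-maria at day 22 of neuronal full-length mHTT. They ranged over -0.12 to 0.0700 for santa-maria over those ages, -0.0482 to 0.15 for ninaB between neuronal models, -0.0631 to 0.0370 for santa-maria in glial controls and -0.0333 to 0.10 for ninaA between drivers at day 7. The average difference of ninaD ranged over 0.82 to 0.94 and 0.94 to 1.13 in glia, and 0.60 to 0.72 and 0.58 to 0.76 in neurons. ninaD was chosen in these libraries for being higher in all 4 models. Its kept sign is thus a description and no support for the rise. With the replicate block 3 genes were called for neuronal N-terminal mHTT, as ninaB had an adjusted p of 0.0562, and the block changed no other call on these genes. Of 36 pairs of same-numbered libraries 9 deviated together with a correlation over 0.1 (-0.59 to 0.55). Over all genes, the label prefix, the farthest libraries and the joint fit of 72 libraries moved the 1378 calls for neuronal N-terminal mHTT to 4172, 3729 and 3264, and the 1996 for neuronal full-length mHTT became 3702 without its farthest library. At single ages, fits other than those leaving out 1 library called 1 to 5292 genes at day 11 and 144 to 1676 at day 7 for neuronal N-terminal mHTT, and 0 to 1444 at day 22 for neuronal full-length mHTT. Median-ratio rescaling moved the median of all genes most at day 7 of glial N-terminal mHTT, by -0.0941 on the log2 scale. The causes were not tested, and with no read counts the limits set by depth are not known.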
